A study of Mus musculus with 6 samples.

Results

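The genes described here are 10 secreted metalloproteases of the ADAMTS family: Adamts1, Adamts2, Adamts4, Adamts5, Adamts7, Adamts8, Adamts9, Adamts12, Adamts15 and Adamts16. They were found by gene symbol among the 47643 genes of a count table from mouse aorta, which holds 19 ADAMTS proteases in all. The list was selected on results of the same EPO against Vehicle comparison, so the differences of these 10 genes between the groups are given as a description: no p is given for them, and standard errors and intervals show only the spread between libraries. Both groups were Apoe-/- mice, which lack apolipoprotein E, the lipid carrier whose loss raises plasma cholesterol and leads to atherosclerosis. The EPO group (n = 3 libraries) received recombinant human erythropoietin, the hormone of red cell production, injected intraperitoneally for 4 weeks at a daily dose of 5000 IU per kg, and the Vehicle group (n = 3) had saline injections over the same span. RNA came from the entire aorta, and the series title places the comparison in a study of abdominal aortic aneurysm, angiogenesis and inflammatory cells. Age and sex were not given in the sources used here, nor whether each library came from a separate animal, so the spread between libraries may be partly technical.

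ADAMTS proteases share a zinc-dependent catalytic domain, a disintegrin-like domain and thrombospondin type repeats that hold them in the extracellular matrix. They are made as inactive precursors, from which furin-like convertases usually remove a propeptide. Members cut the large aggregating proteoglycans (aggrecan and versican), trim the amino-terminal propeptide of fibrillar procollagens or degrade cartilage oligomeric matrix protein (COMP). In the artery wall these substrates set the hydration and the collagen scaffold between smooth muscle layers, and tissue inhibitors of metalloproteases (TIMPs) and endocytic receptors limit the enzymes.

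The coding sequence of the zinc-binding site is shown because it is the feature that makes all 10 genes proteases and because its eighth residue differs between branches of the family. Each stretch has 33 bases, read 5′ to 3′ on the coding strand from GENCODE M21 transcripts (GRCm38), with capitals for the codons of the 3 zinc-binding histidines, of the catalytic glutamate beside the first histidine, and of the eighth residue of the site.
Adamts1: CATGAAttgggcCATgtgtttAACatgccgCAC
Adamts4: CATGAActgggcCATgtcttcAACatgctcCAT
Adamts9: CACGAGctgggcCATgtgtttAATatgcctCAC
Adamts15: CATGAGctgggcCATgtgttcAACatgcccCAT
Adamts8: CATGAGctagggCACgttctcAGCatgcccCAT
Adamts5: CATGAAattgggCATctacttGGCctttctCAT
Adamts2: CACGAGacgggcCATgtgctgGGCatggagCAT
Adamts7: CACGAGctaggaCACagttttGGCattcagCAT
Adamts12: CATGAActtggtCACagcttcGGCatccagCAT
Adamts16: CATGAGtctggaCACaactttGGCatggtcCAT
The eighth codon reads asparagine in Adamts1, Adamts4, Adamts9 and Adamts15, serine in Adamts8 and glycine in Adamts2, Adamts5, Adamts7, Adamts12 and Adamts16. Among the 9 other ADAMTS proteases it reads asparagine in 1, Adamts20, and glycine in 8. Adamts4 and Adamts15 were most alike, with 30 of 33 identical bases, and Adamts9 was least like Adamts12 and Adamts16, with 17 of 33 each. In every one of the 10 genes the stretch is split between 2 exons. Over the translated proteins, Adamts1 was closest to Adamts15 (54.1% identity over 889 aligned residues), Adamts7 and Adamts12 were closest to each other (47.8% over 1552), and Adamts2, Adamts9 and Adamts16 were closest to proteases outside the list (Adamts3, Adamts20 and Adamts18, with 60.9%, 55.5% and 56.3%).

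Sequencing gave between 23278649 and 38502430 counts per library, the least in Vehicle 1 and the most in EPO 1. Levels are counts per 1000000 counts of the scaled library (CPM), and CPM per kb of exon where genes are compared with each other. A difference past the threshold means an edgeR quasi-likelihood test with a Benjamini-Hochberg adjusted p under 0.05 over the 16522 genes tested. Of all tested genes, 12.9% were past it and higher with EPO and 10.1% were past it and lower. The counts of markers below, higher or lower, use the same threshold. All 6 smooth muscle markers, which define the labelled tissue, were detected, and their summed level was 19600 to 27900 CPM in Vehicle and 7140 to 9130 CPM in EPO, with 6 of 6 lower. Summed markers of skeletal muscle fibres, which the aorta wall does not contain, were 5.33 to 12.7 CPM in Vehicle and 1030, 2570 and 286 CPM in EPO 1, 2 and 3 (7 of 7 higher). Macrophage markers summed to 525 to 893 CPM in Vehicle and 1100 to 2790 CPM in EPO, with the top value in EPO 1. Only 1 of 6 was past the threshold (higher), near the share of all tested genes. Fibroblast markers (2 of 6 higher) went from 3190 to 3540 CPM to 3940 to 4430 CPM, and white adipocyte markers (3 of 6 lower) from 2730 to 6790 CPM to 1820 to 2530 CPM. Chondrocyte markers went from 38.5 to 58.0 CPM to 176 to 202 CPM (3 of 5 tested higher). That list shares Acan and Col2a1 with the substrates described further on, and Acan made up most of each sum. Sums of endothelial markers (2 of 5 higher, 1 lower), Schwann cell markers (0 of 4 past the threshold) and T cell markers (1 of 4 higher) overlapped between the groups. No marker of these lists was at 0 in all 6 libraries, and their part in the results on the ADAMTS genes was not tested. In RNA from whole tissue, fewer cells of a type and less RNA per cell cannot be told apart. Apoe itself was counted at 7.65 to 38.6 CPM, overlapping between the groups (edgeR adjusted p = 0.512); as both groups carry the same allele, and the deleted part is not given, this checks no label.

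All 10 genes passed the filter on low counts. Of these, 5 (Adamts2, Adamts4, Adamts7, Adamts12 and Adamts16) were past the threshold and higher with EPO, where 12.9% of all tested genes were, and 2 (Adamts1 and Adamts8) were past it and lower, where 10.1% were. In either direction 23.0% of tested genes were past it, and 3 of the 10 (Adamts5, Adamts9 and Adamts15) were not. Values of the groups did not overlap for 8 of the 10 genes and for 43.8% of all tested genes. Because the list was drawn up with this comparison in view, nothing is read from these counts. They also moved with the libraries used: Adamts1 was not past the threshold without Vehicle 2, without Vehicle 3, without EPO 3, or without EPO 1 and EPO 2, and Adamts2 was not past it without any 1 Vehicle library, without EPO 2, or without EPO 1 and EPO 2. Adamts9 was past it in 6 of 15 alternatives. A fit without EPO 1 and EPO 2 has EPO 3 as its only EPO library, so it takes its spread from the Vehicle libraries and assumes that EPO 3 varies alike; its p can lose a call with little change in fold. The median log2 fold change of the 10 genes was 0.716, beside 0.0113 over all tested genes.

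**Figure D1:**
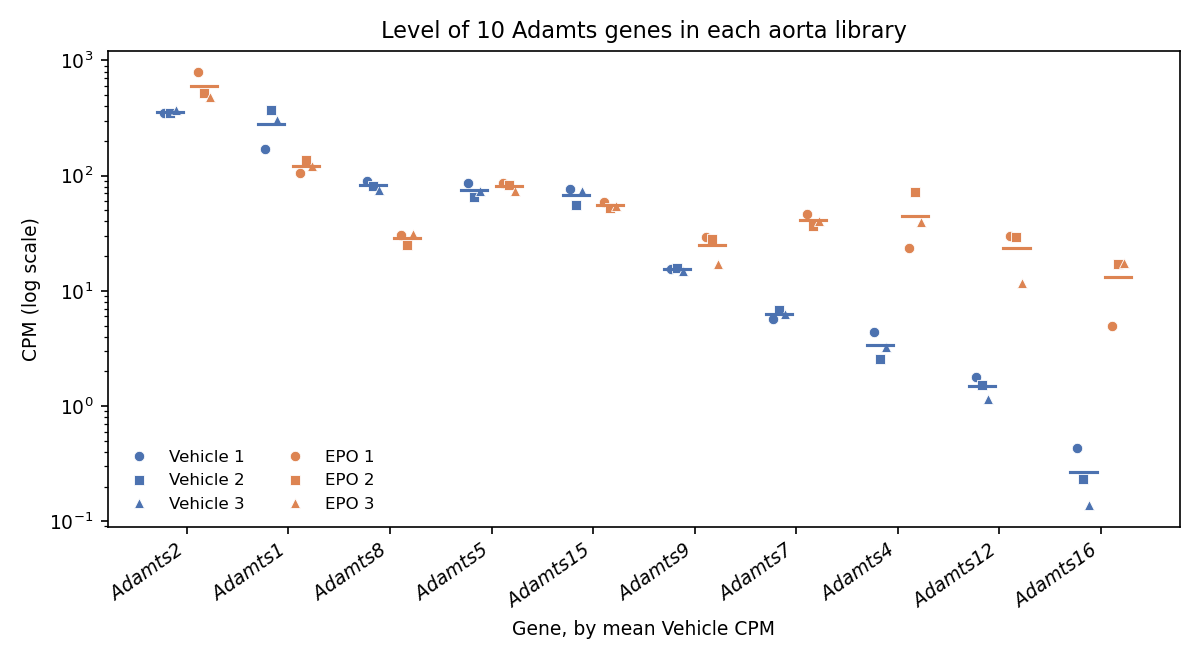
Level of each of the 10 Adamts genes (CPM, log axis) in the 3 Vehicle and 3 EPO libraries, ordered by mean Vehicle level, with 1 point per library and a bar at the group mean. Adamts4, Adamts7, Adamts12 and Adamts16 lie far apart between the groups, Adamts1 and Adamts8 are lower in EPO, and Adamts5 and Adamts15 overlap.

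Adamts1 encodes an inducible protease of versican and aggrecan that also restrains angiogenesis, and mice with reduced Adamts1 are known to develop aortic disease. The gene (ENSMUSG00000022893) lies on the minus strand at chr16:85793827-85803113, with its zinc-site stretch at chr16:85799191-85799545 (GRCm38, as all coordinates here). It stood at 169, 368 and 306 CPM in Vehicle 1, 2 and 3 and at 106, 136 and 122 CPM in EPO 1, 2 and 3. Every EPO library was below every Vehicle library, but Vehicle 1 lay nearer to EPO 2 than to Vehicle 2. The mean went from 281 ± 102 CPM (SD, n = 3) to 121 ± 15 CPM, 2.32-fold lower, with a fitted log2 fold change of -1.21 (SE 0.28). The spread between Vehicle libraries was wide (coefficient of variation 36.3%, against 12.4% in EPO), and the log2 fold change ranged from -1.50 to -0.99 over 15 alternatives.

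Adamts4, an aggrecan- and versican-cutting protease raised in inflamed cartilage and artery, had one of the large differences of the list. The gene (ENSMUSG00000006403) lies on the plus strand at chr1:171250421-171260637, with its zinc-site stretch at chr1:171253210-171253915. In Vehicle it stood at 4.35, 2.57 and 3.24 CPM and in EPO at 23.5, 72.4 and 39.3 CPM. Even the lowest EPO library was more than the sum of the Vehicle values, and EPO 2 was well above EPO 1. On average it went from 3.39 ± 0.898 to 45.0 ± 25 CPM, 13.3-fold higher, with a fitted log2 fold change of 3.74 (SE 0.44). With EPO 3 alone, the EPO library with least skeletal muscle signal, against the 3 Vehicle libraries, the log2 fold change was 3.54.

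Adamts5, the main aggrecan-cutting protease of mouse cartilage, had similar levels in all 6 libraries. The gene (ENSMUSG00000022894) is next to Adamts1 on chromosome 16, at chr16:85856173-85901828, with its zinc-site stretch at chr16:85878015-85887826, on the same strand, 53.1 kb away and with 0 protein-coding genes between. It was at 86.7, 65.2 and 73.3 CPM in Vehicle and at 85.6, 83.7 and 73.4 CPM in EPO. The groups overlapped and EPO 1 was level with Vehicle 1. The means were 75.1 ± 10.9 and 80.9 ± 6.55 CPM, and the fitted log2 fold change was 0.11 (SE 0.14), with a 95% interval from -0.22 to 0.44 and a value of -0.03 without EPO 1 and EPO 2. Within each library, the ratio of Adamts1 to Adamts5 (CPM per kb) was 3.96, 11.5 and 8.51 in Vehicle and 2.51, 3.30 and 3.39 in EPO, with no overlap.

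Adamts8, a protease with thrombospondin repeats that inhibit endothelial growth, showed the tightest of the lower values. The gene (ENSMUSG00000031994) lies on the plus strand at chr9:30942562-30963838, with its zinc-site stretch at chr9:30952721-30953378. It was at 89.8, 81.9 and 75.6 CPM in Vehicle and at 30.6, 24.8 and 30.9 CPM in EPO. The groups stood far apart, with the highest EPO library below the lowest Vehicle library. The means were 82.4 ± 7.13 and 28.8 ± 3.45 CPM, 2.87-fold lower, with a fitted log2 fold change of -1.52 (SE 0.14) and a range of -1.58 to -1.41 over the 15 alternatives. Of its exonic length, 10.6% (489 bases) is shared with the gene model Gm29724, for which there is no value here, so the counts of Adamts8 carry that uncertainty. The levels of Adamts8 and of the smooth muscle markers were both lower in all 3 EPO libraries, and whether they are linked was not tested.

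Adamts15, which cuts versican and aggrecan and is the closest relative of Adamts1 in protein sequence, is the neighbour of Adamts8. The gene (ENSMUSG00000033453) runs in the opposite direction at chr9:30899155-30922452, with its zinc-site stretch at chr9:30911255-30911690, and 20.1 kb with 0 protein-coding genes separate the pair. It was at 77.3, 55.4 and 73.0 CPM in Vehicle and at 59.0, 52.9 and 54.5 CPM in EPO. The groups overlapped, since Vehicle 2 was below EPO 1. The means were 68.6 ± 11.6 and 55.5 ± 3.16 CPM, with a fitted log2 fold change of -0.31 (SE 0.15) and a 95% interval from -0.65 to 0.04. The ratio of Adamts8 to Adamts15 (CPM per kb) was 2.61, 3.32 and 2.33 in Vehicle and 1.16, 1.05 and 1.28 in EPO, again with no overlap.

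Adamts9, a conserved versican-cutting protease, had a smaller difference, with EPO 3 close to Vehicle. The gene (ENSMUSG00000030022) lies on the minus strand at chr6:92772699-92943492, with its zinc-site stretch at chr6:92905285-92908493. It was at 15.4, 15.9 and 14.9 CPM in Vehicle and at 29.1, 28.3 and 17.1 CPM in EPO. EPO 3 was just above the highest Vehicle library, and EPO 1 and EPO 2 were well above it. The means were 15.4 ± 0.515 and 24.8 ± 6.71 CPM, with a fitted log2 fold change of 0.69 (SE 0.21), which was 0.16 with EPO 3 as the only EPO library. Exons shared with the gene models A730049H05Rik (9.18% of the exonic length) and Gm15737 (2.82%) make its counts uncertain; both models lay under 1 CPM in every library.

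Adamts16, a little-studied protease for which fibronectin is a reported substrate, went from near the limit of detection to a moderate level. The gene (ENSMUSG00000049538) lies on the minus strand at chr13:70727802-70841811, with its zinc-site stretch at chr13:70787149-70791812. Its counts were 10, 6 and 4 in Vehicle and 176, 505 and 577 in EPO, or 0.435, 0.233 and 0.138 CPM against 4.91, 17.1 and 17.3 CPM. The groups did not approach each other, although EPO 1 was below the other two EPO libraries. The mean went from 0.269 ± 0.151 to 13.1 ± 7.12 CPM, with a fitted log2 fold change of 5.63 (SE 0.65). The size of the fold (48.9 from the means) rests on 20 Vehicle counts in all against 1258 in EPO, so it is imprecise, and with EPO 3 as the only EPO library the log2 fold change was 6.03.

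Adamts2, the main procollagen amino-propeptidase, trims type I and type III procollagen so that fibrils can form, and its loss causes fragile skin. The gene (ENSMUSG00000036545) lies on the plus strand at chr11:50602084-50807573, with its zinc-site stretch at chr11:50775403-50776134. It was at 351, 351 and 369 CPM in Vehicle and at 788, 520 and 484 CPM in EPO. The Vehicle libraries were almost level (coefficient of variation 2.92%) and all EPO libraries were above them, with EPO 1 apart from the other two (27.8%). The mean went from 357 ± 10.4 to 597 ± 166 CPM, 1.67-fold higher, with a fitted log2 fold change of 0.74 (SE 0.21). Without EPO 1 and EPO 2 the log2 fold change was 0.44.

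Adamts7 and Adamts12 form a branch with a mucin-like domain, and both degrade COMP, a matrix protein of cartilage and artery; Adamts7 also takes part in smooth muscle cell migration after injury. Adamts7 (ENSMUSG00000032363) lies on the plus strand at chr9:90163069-90208071, with its zinc-site stretch at chr9:90179456-90180640. It was at 5.69, 6.77 and 6.35 CPM in Vehicle and at 46.8, 36.4 and 40.7 CPM in EPO. Both groups were tight and far apart. On average it went from 6.27 ± 0.541 to 41.3 ± 5.23 CPM, 6.59-fold higher, with a fitted log2 fold change of 2.72 (SE 0.15) and a range of 2.61 to 2.80 over the 15 alternatives. It shares 122 exon bases (1.94%) with Tbc1d2b, with means of 103 CPM (Vehicle) and 134 CPM (EPO). The strand setting of the counting is not given, so counts of Adamts7 may include reads of Tbc1d2b there.

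Adamts12 (ENSMUSG00000047497) lies on the plus strand at chr15:11064790-11349231, with its zinc-site stretch at chr15:11241529-11255564. It was at 1.78, 1.52 and 1.14 CPM in Vehicle and at 29.8, 29.1 and 11.8 CPM in EPO. The lowest EPO library, EPO 3, was still several times the highest Vehicle library. The mean went from 1.48 ± 0.323 to 23.6 ± 10.2 CPM, 15.9-fold higher, with a fitted log2 fold change of 4.00 (SE 0.41), or 3.01 with EPO 3 as the only EPO library. Of the genes with differences of over 10-fold, the EPO library with the lowest level was EPO 1 for Adamts4 and Adamts16 and EPO 3 for Adamts12.

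Promoter sequences of 300 bases, 250 before and 50 after the transcription start, were in the RefSeq table (GRCm38.p6) for 4 of the 10 genes: Adamts1, Adamts2, Adamts9 and Adamts12. Those of Adamts1 and Adamts12 are shown because they belong to a gene that was lower and a gene that was higher with EPO. Capitals mark matches to 5 motifs searched on both strands: TATAAA (the core of the TATA box), GGGCGG (the GC box of the Sp family), TGANTCA (read by AP-1 proteins), GGAATG (read by TEAD proteins) and the CArG box of serum response factor. None of the matches overlapped. Adamts1 is at chr16:85803064-85803363 on the minus strand and Adamts12 at chr15:11064523-11064822 on the plus strand, each given 5′ to 3′ on the strand of the gene.
Adamts1: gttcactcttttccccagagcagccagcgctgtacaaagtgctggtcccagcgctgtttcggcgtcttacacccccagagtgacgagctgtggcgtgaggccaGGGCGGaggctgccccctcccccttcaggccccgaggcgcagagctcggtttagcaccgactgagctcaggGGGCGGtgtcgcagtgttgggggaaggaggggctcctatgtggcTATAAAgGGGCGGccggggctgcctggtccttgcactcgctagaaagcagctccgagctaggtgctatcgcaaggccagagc
Adamts12: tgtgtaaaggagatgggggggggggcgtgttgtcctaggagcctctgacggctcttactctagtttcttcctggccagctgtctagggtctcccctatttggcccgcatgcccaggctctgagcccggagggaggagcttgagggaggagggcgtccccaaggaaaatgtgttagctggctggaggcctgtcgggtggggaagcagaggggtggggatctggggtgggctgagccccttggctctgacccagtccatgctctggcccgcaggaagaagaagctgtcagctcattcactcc
Adamts1 had 1 TATAAA, at bases -32 to -27 counted from the start as 0, and 3 GGGCGG, whereas Adamts12 had none of the 5 motifs. Adamts2 had 5 GGGCGG and Adamts9 had 1. Over 32851 promoters of the same length in the table, 13.6% held the TATA motif, 35.7% the GC box, 7.81% the AP-1 motif, 14.7% the TEAD motif and 1.63% a CArG box. These matches describe the letters only, and no binding was measured.

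Compared per length of exon, the order of the 10 genes differed between the groups. In Vehicle, Adamts1 (53.0 ± 19.2 CPM per kb) and Adamts2 (38.3 ± 1.12) led with overlapping ranges, followed by Adamts8 (17.9 ± 1.54), then Adamts5 (6.95 ± 1.01) and Adamts15 (6.62 ± 1.12), which overlapped. Adamts9 (1.02 ± 0.0342) and Adamts7 (0.998 ± 0.0861) overlapped below them, and Adamts4 (0.704 ± 0.187), Adamts12 (0.135 ± 0.0296) and Adamts16 (0.0393 ± 0.0221) came last, each separate from its neighbour. In EPO, Adamts2 (63.9 ± 17.8) led alone, ahead of Adamts1 (22.8 ± 2.84). Adamts4 (9.36 ± 5.19), Adamts5 (7.50 ± 0.607), Adamts7 (6.57 ± 0.832), Adamts8 (6.23 ± 0.748) and Adamts15 (5.35 ± 0.305) followed, and each overlapped its neighbour in the order. Adamts12 (2.16 ± 0.930), Adamts16 (1.92 ± 1.04) and Adamts9 (1.65 ± 0.446) came last, also with overlapping neighbours.

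The summed level of the 10 genes overlapped between the groups, at 107, 139 and 130 CPM per kb in Vehicle and 142, 127 and 113 CPM per kb in EPO (means 126 ± 16.3 and 128 ± 14.6). The shares of single genes in that sum did not all overlap. Adamts1 made up 41.3 ± 10.5% of the sum in Vehicle and 18.2 ± 3.61% in EPO. Adamts2 made up 30.8 ± 3.98% and 49.6 ± 8.47%. The share of Adamts8 was 14.5 ± 3.15% against 4.94 ± 0.891%. The shares of the low genes of Vehicle were higher in EPO: Adamts4 stood at 0.581 ± 0.235% against 7.49 ± 4.20%, Adamts7 at 0.798 ± 0.0393% against 5.17 ± 0.595%, Adamts12 at 0.111 ± 0.0371% against 1.66 ± 0.609%, and Adamts16 at 0.0331 ± 0.0230% against 1.57 ± 0.935%. The leading 4 genes of each library took 90.2% to 94.1% of the sum in Vehicle and 79.5% to 84.1% in EPO. As shares of a whole they are not independent of each other.

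**Figure D2:**
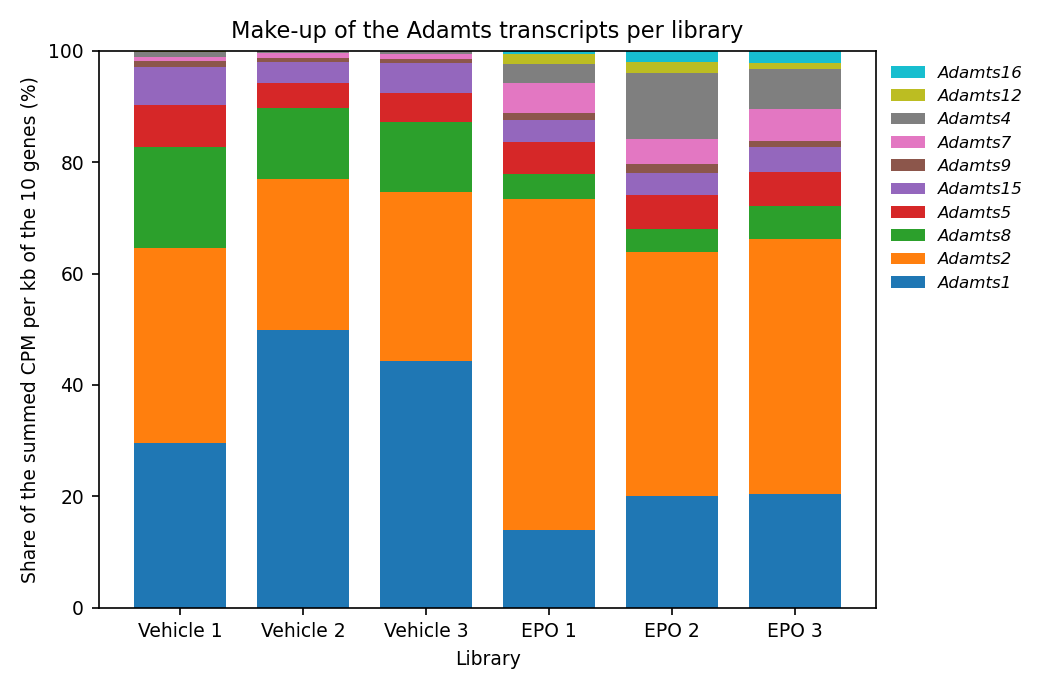
Share of each of the 10 Adamts genes in their summed CPM per kb (percent, vertical axis) for each of the 6 libraries, as stacked bars. Adamts1 took 29.6% to 49.9% in Vehicle and 14.0% to 20.4% in EPO, and Adamts4, Adamts7, Adamts12 and Adamts16 are visible mainly in EPO.

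Adamts4 and Adamts5 are 2 of the aggrecan-cutting proteases of the list, and their ratio did not overlap between the groups. Adamts5 was 8.90, 11.3 and 10.1 times the level of Adamts4 (CPM per kb) in Vehicle and 1.63, 0.515 and 0.834 times in EPO. Adamts4 was thus above Adamts5 in EPO 2 and EPO 3 and in none of the Vehicle libraries. The COMP-degrading pair, Adamts7 over Adamts12, had ratios of 5.55, 7.76 and 9.69 in Vehicle and 2.73, 2.18 and 5.97 in EPO, which overlapped.

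The rest of the family was described from a list of 15 genes: the 9 other ADAMTS proteases and 6 members without a protease domain (Adamtsl1 to Adamtsl5 and Papln). Of the 12 tested, 4 proteases rose with EPO and 0 members fell (33.3% past the threshold, against 23.0% of all tested genes), with a median log2 fold change of 0.437; 2 rose in each fit without 1 Vehicle library. The list was written with earlier results of these data known, as were those of substrates and inhibitors. Adamts17 rose most, from 0.792 ± 0.263 to 6.14 ± 1.24 CPM (log2 fold change 2.96, SE 0.33, edgeR adjusted p = 0.00262), and was past the threshold in all 15 alternatives. Adamts3, a procollagen propeptidase like Adamts2, rose from 1.03 ± 0.123 to 3.17 ± 0.458 CPM (1.62, SE 0.27, edgeR adjusted p = 0.00698, and 1.52 with 0.0654 without EPO 1 and EPO 2). Adamts14, the third of the procollagen propeptidases, rose from 11.6 ± 0.660 to 19.6 ± 3.17 CPM (0.76, SE 0.16, edgeR adjusted p = 0.0160), a call lost without Vehicle 1, Vehicle 2 or Vehicle 3 (0.0622, 0.0634 and 0.0565). Adamts6 went from 6.03 ± 0.752 to 11 ± 2.19 CPM (0.87, SE 0.21, edgeR adjusted p = 0.0233), a call lost in 6 of the 15 alternatives, among them each fit without 1 Vehicle library, without EPO 2, and without EPO 1 and EPO 2 (0.0515 to 0.171 over the 6).

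Of the other 8 tested family members 0 passed the threshold with all 6 libraries. Adamts10, which acts on fibrillin microfibrils, was the most abundant of these proteases, with means of 217 ± 24.4 (Vehicle) and 235 ± 32.6 CPM (EPO), a log2 fold change of 0.11 (SE 0.16, edgeR adjusted p = 0.636). Per length it stood at 26.3 ± 2.95 CPM per kb in Vehicle, between Adamts2 and Adamts8. Adamts20, the closest relative of Adamts9, was at 0.521, 0.311 and 0.345 CPM in Vehicle and at 0.586, 1.43 and 0.631 CPM in EPO (log2 fold change 1.16, edgeR adjusted p = 0.123). Its groups did not overlap, but it had only 30 counts in Vehicle and 84 in EPO. Without EPO 2 its log2 fold change was 0.64. Adamtsl5 was at 152 ± 7.97 CPM in Vehicle and at 144, 80.3 and 76.5 CPM in EPO (edgeR adjusted p = 0.123), and without EPO 1 it passed the threshold as lower (0.00317). Adamtsl4 had a log2 fold change of -0.32 (edgeR adjusted p = 0.0742, and 0.0417 without EPO 1). For Adamtsl1, Adamtsl2, Adamtsl3 and Papln the log2 fold changes were -0.25, -0.54, 0.10 and 1.55 (edgeR adjusted p = 0.266, 0.286, 0.618 and 0.184), and the value for Papln came mainly from EPO 1, at 7.03 CPM against 1.73 and 0.842 CPM. Adamts13, Adamts18 and Adamts19 had too few counts to be tested.

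**Figure D3:**
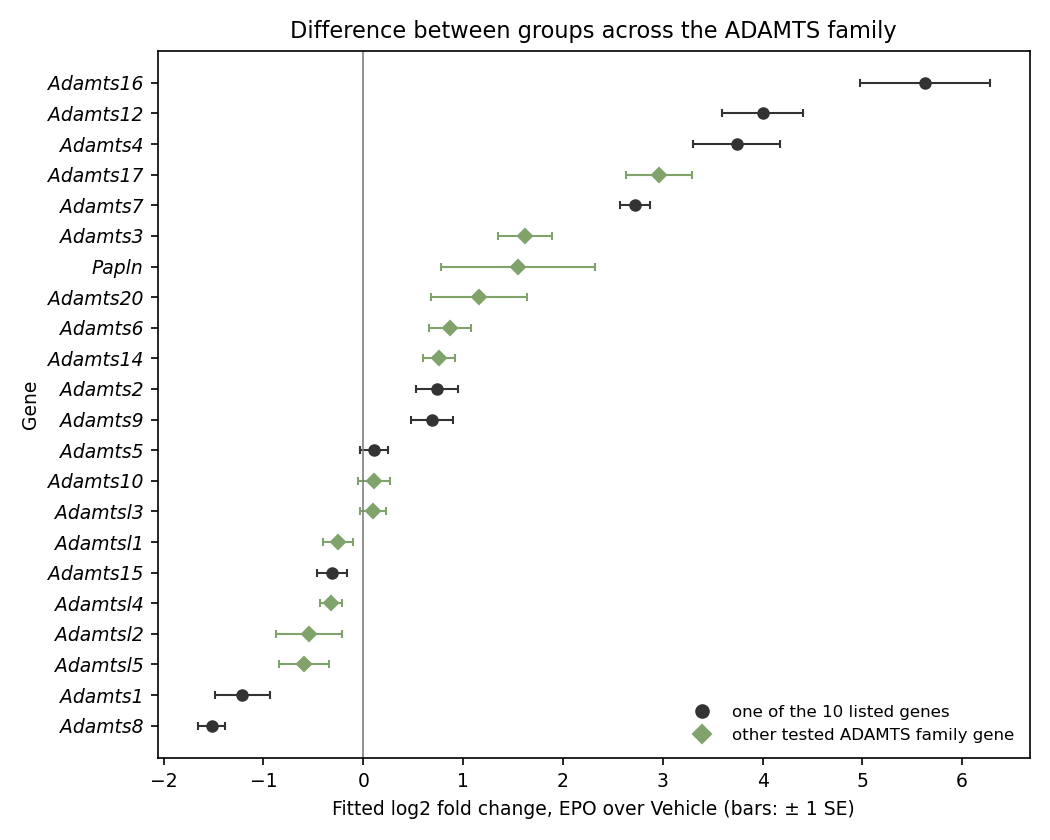
Fitted log2 fold change, EPO over Vehicle, with bars of 1 standard error on each side, for the 10 listed Adamts genes (black circles) and the 12 other tested family members (green diamonds). Values run from -1.52 for Adamts8 to 5.63 for Adamts16, and Adamts17 (2.96) is the highest of the genes outside the list.

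Of the 17 genes for known substrates of the family, all tested, 11 rose and 0 fell (64.7% past the threshold, against 23.0% of all tested genes), with a median log2 fold change of 1.36 beside the 0.0113 over all genes. Nid2, a basement membrane linker, rose from 13.1 ± 1.05 to 80.8 ± 8.07 CPM (log2 fold change 2.62, SE 0.13, edgeR adjusted p = 0.000433). Acan, which encodes aggrecan, rose from 34.8 ± 6.52 to 164 ± 16.2 CPM (2.24, SE 0.17, edgeR adjusted p = 0.00105), while Vcan, for versican, was at 140 ± 27.6 and 182 ± 33.6 CPM (0.38, SE 0.20, edgeR adjusted p = 0.210). The ratio of Acan to Adamts5 (CPM per kb) went from 0.689 ± 0.205 to 2.94 ± 0.198, and that of Acan to Adamts4 overlapped between the groups (4.04, 9.49 and 7.78 against 4.46, 1.61 and 2.45). Acan itself made up most of the chondrocyte marker sums given above. It gave 27.3, 37.8 and 39.2 CPM of 38.5, 58.0 and 50.9 CPM in Vehicle 1, 2 and 3. In EPO 1, 2 and 3 it gave 162, 181 and 149 CPM of 176, 202 and 187 CPM. Those sums are thus no separate measure beside Acan, and the part of chondrocytes in the result was not tested.

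The genes of type I and type III procollagen, which Adamts2 trims, had larger log2 fold changes than Adamts2 (0.74). Col2a1, the gene of type II procollagen on the same substrate list, had a smaller one (0.03, overlapping between the groups). The fibroblast marker sums given above were higher in EPO, and their part in the result was not tested. Col1a1 rose from 3440 ± 553 to 25700 ± 3370 CPM (log2 fold change 2.90, SE 0.27, edgeR adjusted p = 0.00167), and Col3a1 from 3530 ± 630 to 18300 ± 4210 CPM (2.37, SE 0.28, edgeR adjusted p = 0.00277). Col1a2 rose from 3920 ± 403 to 16600 ± 3210 CPM (2.08, edgeR adjusted p = 0.00289). Per length, Col1a1 stood at 11.8, 16.2 and 13.2 times the level of Adamts2 in Vehicle and at 45.3, 62.3 and 86.5 times in EPO, with no overlap. Adamts2 over Adamts14 had a ratio of 17.2 ± 1.44 in Vehicle and 17.8 ± 8.31 in EPO.

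Comp, the substrate of Adamts7 and Adamts12, rose from 110 ± 44.2 to 429 ± 166 CPM (log2 fold change 1.97, SE 0.37, edgeR adjusted p = 0.0108). Thbs1, for the matrix protein thrombospondin 1, rose from 252 ± 127 to 1660 ± 909 CPM (2.72, SE 0.53, edgeR adjusted p = 0.0119). With EPO 3 as the only EPO library neither call was kept (edgeR adjusted p = 0.0970 and 0.0769), though the log2 fold changes were 1.45 and 2.22. Nid1, Tfpi2, Fn1 and Vegfc also passed the threshold (log2 fold changes 1.36, 2.72, 0.95 and 0.62, with edgeR adjusted p = 0.00434, 0.0141, 0.0380 and 0.0434), of which the calls of Fn1 and Vegfc were each lost in 7 of the 15 alternatives. Those of Fn1 included each fit without 1 library other than EPO 3, and those of Vegfc each fit without 1 Vehicle library or EPO 3. The call of Tfpi2 was lost in 3, among them the fits without Vehicle 1 or Vehicle 2. Bgn, Ncan, Bcan, Vwf and Col2a1 did not pass it (log2 fold changes 0.05, -1.25, 0.16, -0.82 and 0.03). Ncan came nearest (edgeR adjusted p = 0.0639) and was past it as lower with DESeq2 (DESeq2 adjusted p = 0.0315). Vwf was past it as lower without EPO 1 (edgeR adjusted p = 0.0107).

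Of 17 genes for inhibitors, activators, modifiers and clearance receptors of the enzymes, 16 were tested, 4 rose and 1 fell (31.2% past the threshold, against 23.0% of all tested genes; median log2 fold change 0.212). The number past the threshold was 3 without Vehicle 1, 2 without Vehicle 2, and 3 without EPO 1 and EPO 2. Timp3, the inhibitor with the broadest action on aggrecan-cutting ADAMTS enzymes, had a Vehicle mean of 362 ± 42.0 CPM and an EPO mean of 315 ± 50.4 CPM (log2 fold change -0.20, SE 0.17, edgeR adjusted p = 0.416). Timp4 fell from 32.9 ± 4.05 to 12.1 ± 2.32 CPM (-1.44, SE 0.18, edgeR adjusted p = 0.00307). Timp1, which inhibits these enzymes weakly, rose from 81.3 ± 48.7 to 296 ± 58.8 CPM (1.86, SE 0.43, edgeR adjusted p = 0.0212), a call lost without Vehicle 2 (0.0814) and without EPO 1 and EPO 2 (0.158, at a log2 fold change of 1.66). Furin, the convertase that removes the propeptide, was at 189 ± 11.3 and 257 ± 15.4 CPM (0.45, SE 0.12, edgeR adjusted p = 0.0380), and its call was lost in 9 of the 15 alternatives, among them each fit without 1 library other than EPO 1.

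Sdc1, a syndecan of the cell surface, rose from 87.8 ± 11.4 to 269 ± 101 CPM (log2 fold change 1.61, SE 0.27, edgeR adjusted p = 0.00702). Dpy19l1, which adds mannose to thrombospondin repeats, rose from 40.1 ± 3.08 CPM in Vehicle to 54.7, 74.7 and 63.8 CPM in EPO (0.68, SE 0.14, edgeR adjusted p = 0.0154), a call lost without Vehicle 1 or Vehicle 2 (0.0827 and 0.0530). Lrp1, the receptor that clears Adamts4 and Adamts5 from the matrix, was at 1210 ± 40.1 CPM in Vehicle and at 3960, 1850 and 1680 CPM in EPO (1.05, SE 0.34, edgeR adjusted p = 0.0596, and 0.0261 without EPO 1 and 0.0425 without EPO 3). The EPO library with the highest Lrp1, EPO 1, also had the highest macrophage marker sum, and its part in the value was not tested.

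**Figure D4:**
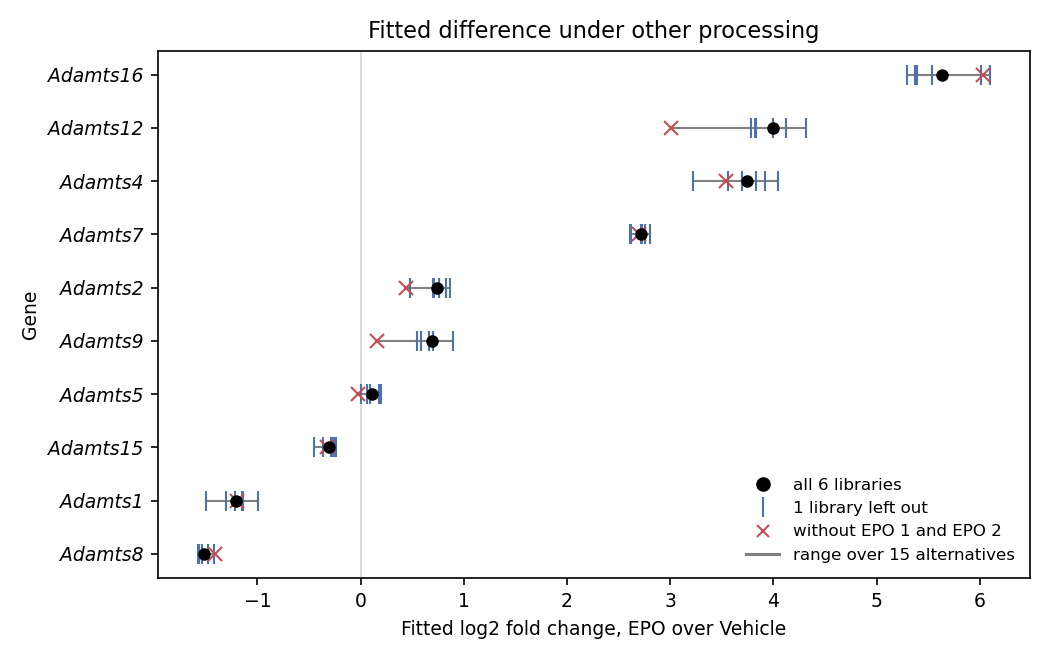
Fitted log2 fold change, EPO over Vehicle, of each of the 10 Adamts genes with all 6 libraries (black points), with 1 library left out (blue ticks), without EPO 1 and EPO 2 (red crosses), and as a grey range over 15 alternatives. Adamts7 and Adamts8 moved least, at 2.61 to 2.80 and -1.58 to -1.41, while Adamts12 (3.01 to 4.32) and Adamts9 (0.16 to 0.90) moved most without EPO 1 and EPO 2.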

How the data were processed

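RNA of the entire aorta was measured in 6 libraries. Per the submitters' processing notes, base calls came from CASAVA 1.8 and reads were aligned with TopHat2 2.0.6 to mm10; which counter, strand setting and annotation were used is not given in the sources used here. Deposited were raw counts per Ensembl gene, and the columns named Con were read as Vehicle. Symbols and lengths came from GENCODE M21 by gene ID (47224 matched, 419 with 0.0272% of the counts did not).

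Counts were fitted with edgeR 4.0.16 in R 4.3.3 (filterByExpr, TMM, quasi-likelihood test, two-sided, group only) and adjusted over 16522 genes. SE is the log2 fold change over the root of its F value, and CPM uses the scaled library size. The procedure was tested on simulated data. Alternatives were other scalings, filters and tools (DESeq2 1.42.0, limma-voom 3.58.1), removal of haemoglobin and mitochondrial genes, a replicate block and left-out libraries; EPO 1 and EPO 2 were left out together as those of highest skeletal muscle sums, though EPO 3 still had 286 CPM.

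The 10 genes and all gene lists were chosen with earlier results of these data known. Named were the 10 genes, Apoe, every tested member of the rest of the family, and from the other lists the 5 of smallest p; further genes were named after their values were seen. Groups of 3 libraries limit precision.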

Additional observations from a re-analysis of the deposited data

How the results depend on the processing

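The number of genes past the threshold was 3804 with all libraries, and it was 1548 without EPO 1 and EPO 2. Leaving out 1 library in turn gave 1635 (without Vehicle 1) to 4281 (without EPO 1) for all genes, 2 (without Vehicle 1, 2 or 3) to 6 for the rest of the ADAMTS family against 4, 8 to 11 for the substrates against 11, 2 (without Vehicle 2) to 6 for the inhibitors, activators and clearance genes against 5, and 5 to 7 for the 10 listed genes against 7. The inhibitor list had 3 genes past it without EPO 1 and EPO 2, and also 3 without Vehicle 1. Without EPO 1 and EPO 2, Adamts2, Adamts9 and Adamts12 had log2 fold changes of 0.44, 0.16 and 3.01, in place of 0.74, 0.69 and 4.00; the cause was not tested. Replicate numbers are not said to pair the samples. Same-numbered libraries had deviations from their group means correlated at -0.0088, -0.0098 and 0.127, and other-numbered libraries at -0.101 to 0.12. With 3 libraries per group these values cannot decide whether the samples were paired. With the number as a replicate block, 2884 genes passed (1630 higher, 1254 lower), with 3 of the rest of the family, 9 substrates, 4 of the inhibitor list and 6 of the 10 genes; the calls lost were those of Adamts2, Adamts6, Fn1, Vegfc and Furin. Depth and the spread between libraries both limit the fold of Adamts16, which had 20 Vehicle counts.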
